A study of Mus musculus with 12 samples.

Results

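The difference between genotypes in the transcript response to interleukin-1 beta (IL-1b) within 1 h was measured in fibroblasts cultured from mouse embryos. The difference was taken as the change after 1 h in IRAK4 kinase-dead cells minus the change after 1 h in wild-type cells, so a negative value means a smaller rise, or a larger fall, in kinase-dead cells. It rests on 8 of the series' 12 Affymetrix Mouse Genome 430 2.0 arrays, 2 in each of 4 groups. These were kinase-dead cells after 1 h with mouse IL-1b at 1 ng/ml, kinase-dead cells grown for 4 h without it, wild-type cells after 1 h at the same dose and wild-type cells grown for 4 h without it, so that stimulated and unstimulated cells were not matched for hours in culture. All were grown in medium with foetal calf serum. The other 4 arrays, of both genotypes after 4 h of IL-1b, entered the estimate of spread and a closing comparison. The title of unstimulated wild-type replicate 1 does not state its genotype, and it is counted as wild type because the stated design has 6 wild-type arrays. Both arrays of a group are described as biological replicates, but no animals or cultures are named, and p-values measure only the spread between such arrays. The labels do not say how the kinase-dead allele was made or whether the fibroblast cultures came from 1 or several embryos. The transcript of Irak4 itself was not analysed here.

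IRAK4 is the first protein kinase of the complex that the adaptor MyD88 assembles on the activated IL-1 receptor. Signals from this complex pass through IRAK1 and IRAK2 to the ubiquitin ligase TRAF6 and the kinase TAK1, and from there to the IKK complex, which releases NF-kB from its inhibitors, and to the MAP kinases. In fibroblasts NF-kB switches on chemokine and cytokine genes and, with them, genes whose products end the signal, while the Fos and Egr families are classical targets of the MAP kinases and also answer serum and growth factors. A kinase-dead protein can still take its place in the complex, which separates the loss of its activity from the loss of the protein.

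The difference was called, at a limma adjusted p under 0.05, for 61 of 12456 genes (0.49%), 43 with a lower kinase-dead response (0.345%) and 18 with a higher one (0.145%). At an unadjusted p of 0.05 the number was 1046. The log2 differences of the 43 ran from -7.15 to -0.59 with a median of -1.49, those of the 18 from 0.65 to 2.50 with a median of 1.34, and the median over all genes tested was 0.04. In all 61 the 4 kinase-dead changes, 1 for each pairing of a stimulated with an unstimulated array, lay entirely below or entirely above the 4 wild-type ones, as they did in 21.5% of all genes tested. Scaling each array to 1 median moved the median difference of all genes by -0.17, and the split became 53 lower and 8 higher. All 43 lower calls were among those 53, and 7 of the 18 higher calls (Aldh1a3, Bcl6b, C86187, Col22a1, Ttc9, Zcchc3 and Zfp87) were among the 8. Leaving out unstimulated wild-type replicate 1 gave 103 calls, leaving out wild-type 1 h replicate 2 gave 38, and leaving out kinase-dead 1 h replicates 1 and 2 gave 35 and 40.

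The 2 arms of this difference share no arrays. In all, 407 genes changed in kinase-dead cells (3.27%) and 930 in wild-type cells (7.47%). After 1 h, 193 genes were higher in kinase-dead cells (1.55% of those tested) and 363 in wild-type cells (2.91%), and 106 were higher in both, which is 54.9% of the kinase-dead rises and 29.2% of the wild-type rises. Falls numbered 214 in kinase-dead cells (1.72%) and 567 in wild-type cells (4.55%), with 122 in both, or 57.0% and 21.5% of these lists. No gene rose in one genotype and fell in the other. The 87 genes that rose at least 2-fold in wild-type cells had a median log2 change of 1.61 there. In kinase-dead cells the median of all 87 was 0.71, and 40 of them rose. Taken the other way, the 42 genes that rose at least 2-fold in kinase-dead cells had a median of 1.24 there and 1.40 in wild-type cells, where 31 of them rose. Each list was chosen by its own arm, which favours that arm's value, and with single arrays left out the calls numbered 94 to 646 in the kinase-dead arm and 410 to 1008 in the wild-type arm.

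**Figure D1:**
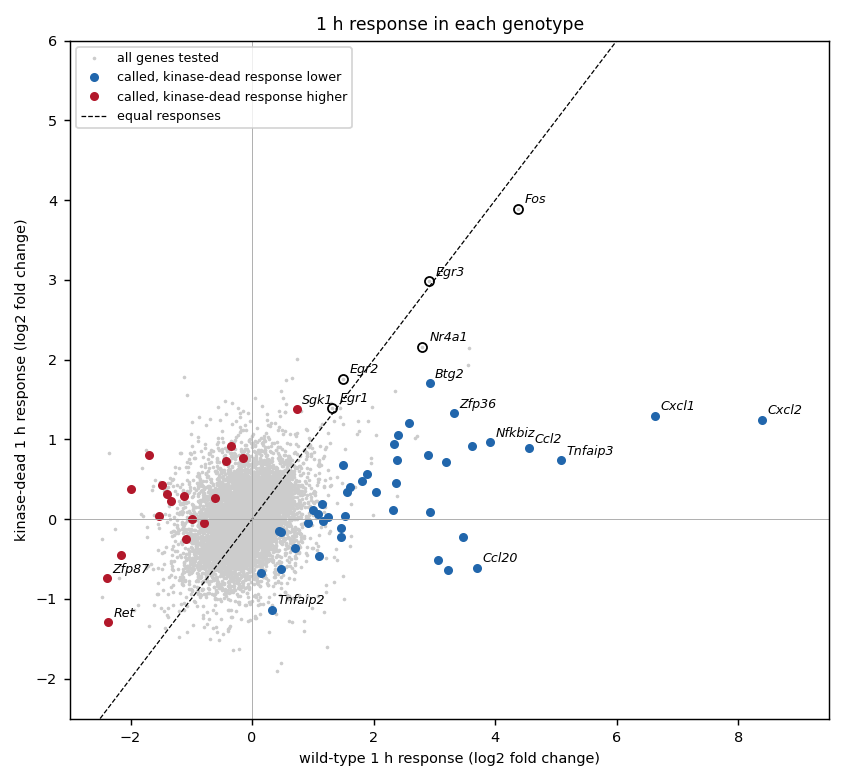
Log2 change after 1 h of IL-1b in kinase-dead cells (y axis) against that in wild-type cells (x axis) for each gene tested. Genes with a called difference are coloured and the dashed line marks equal responses. Cxcl2 and Cxcl1 lie far to the right with kinase-dead changes of 1.25 and 1.30, while Fos and Egr3 (open circles) lie near the line.

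Chemokines, the secreted proteins that draw leukocytes, held the largest called differences. Of the 6 neutrophil-attracting CXC chemokine genes tested, 3 had a lower response in kinase-dead cells, 0 a higher one and 3 did not pass, with a median of -2.25. Over all genes tested, 0.345% had a called lower response. Cxcl2 had signals of 14.4 and 11.9 in kinase-dead cells at 1 h and 1.1 and 0.7 in unstimulated kinase-dead cells, against 3884.9 and 3968.7 in wild-type cells at 1 h and 2.7 and 4.7 in unstimulated wild-type cells. All 4 kinase-dead arrays were below 25.5, the median signal of all probe sets, and wild-type 1 h arrays alone were high. The difference was -7.15 ± 0.23 (SE, n = 2 arrays per group; limma adjusted p = 4.91e-12), from changes of 1.25 ± 0.16 in kinase-dead and 8.40 ± 0.16 in wild-type cells. Cxcl1 had signals of 73.8 and 36.7 in kinase-dead cells at 1 h and 22.8 and 11.7 in unstimulated kinase-dead cells, against 5944.9 and 6227.6 in wild-type cells at 1 h and 68.5 and 41 in unstimulated wild-type cells. Its kinase-dead arrays after IL-1b overlapped the unstimulated wild-type arrays. The difference was -5.34 ± 0.35 (adjusted p = 9.53e-08), and 2 other Cxcl1 probe sets gave -6.54 and -5.99, both called. Cxcl5 had signals of 2.2 and 3.6 in kinase-dead cells at 1 h and 0.8 and 10.2 in unstimulated kinase-dead cells, against 1367 and 1457.6 in wild-type cells at 1 h and 104.6 and 136.3 in unstimulated wild-type cells. It was lower in kinase-dead cells without stimulation too, with a log2 difference of -3.33 ± 0.25 (adjusted p = 8.22e-08), and its response difference was -3.70 ± 0.35 (adjusted p = 1.44e-05).

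Of the 9 CC chemokine genes tested, 3 had a lower kinase-dead response, 0 a higher one and 6 did not pass (median -1.06). The share called lower over all genes tested was 0.345%. Ccl2 and Ccl7 encode monocyte attractants and Ccl20 an attractant of lymphocytes and dendritic cells. Ccl2 had signals of 107.3 and 116.2 in kinase-dead cells at 1 h and 60.6 and 53 in unstimulated kinase-dead cells, against 3521.2 and 4214 in wild-type cells at 1 h and 120.8 and 202.5 in unstimulated wild-type cells. The 2 genotypes did not overlap in either condition. The Ccl2 difference was -3.66 ± 0.24 (adjusted p = 8.81e-08), with a kinase-dead change of 0.89 ± 0.17 that was called in 10 of the 12 fits that left out 1 array. Ccl7 changed by 0.92 ± 0.16 in kinase-dead and 3.62 ± 0.16 in wild-type cells, a difference of -2.70 ± 0.22 (adjusted p = 2.33e-06). Ccl20 had signals of 2.7 and 3.5 in kinase-dead cells at 1 h and 14.4 and 4.8 in unstimulated kinase-dead cells, against 562.6 and 606.3 in wild-type cells at 1 h and 41.7 and 33.5 in unstimulated wild-type cells. Its kinase-dead arrays were all below 25.5 and its difference was -4.32 ± 0.33 (adjusted p = 9.2e-07). Of the 6 remaining chemokine genes, 0 passed in limma (2 at an unadjusted p under 0.05). Cxcl10, which attracts T cells, came closest with -2.50 ± 0.55 (adjusted p = 0.0598), and it passed without unstimulated wild-type replicate 1 or without kinase-dead 1 h replicate 2, where the adjusted p was lowest at 0.0163.

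Promoter windows from RefSeq (GRCm38.p6, 250 bases before to 50 after a transcript start) were read for 34 of the 43 genes with a lower response. Shown as lines of sequence are 3 of these genes, chosen as holders of the NF-kB motif among the largest or most often measured differences, and 1 of several windows of Egr2, for the genes that rose in both genotypes. Capitals mark the match on either strand to the NF-kB consensus motif in the first 3, where overlapping matches run together, and to the CArG box, the site of serum response factor, in Egr2.
Cxcl1 (chr5:90890995-90891294, plus strand): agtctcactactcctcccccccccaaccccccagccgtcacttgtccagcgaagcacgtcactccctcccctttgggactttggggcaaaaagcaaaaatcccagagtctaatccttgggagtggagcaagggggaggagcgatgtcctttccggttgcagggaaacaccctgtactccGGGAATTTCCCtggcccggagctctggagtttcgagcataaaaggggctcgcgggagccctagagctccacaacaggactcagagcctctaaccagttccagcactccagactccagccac
Cxcl2 (chr5:90903649-90903948, plus strand): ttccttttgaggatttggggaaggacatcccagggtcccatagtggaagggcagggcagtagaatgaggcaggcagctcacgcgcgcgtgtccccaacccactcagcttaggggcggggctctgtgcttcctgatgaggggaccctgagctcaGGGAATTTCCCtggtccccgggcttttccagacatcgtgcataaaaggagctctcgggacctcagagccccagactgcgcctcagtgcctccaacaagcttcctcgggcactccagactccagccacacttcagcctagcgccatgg
Nfkbia (chr12:55492598-55492897, minus strand): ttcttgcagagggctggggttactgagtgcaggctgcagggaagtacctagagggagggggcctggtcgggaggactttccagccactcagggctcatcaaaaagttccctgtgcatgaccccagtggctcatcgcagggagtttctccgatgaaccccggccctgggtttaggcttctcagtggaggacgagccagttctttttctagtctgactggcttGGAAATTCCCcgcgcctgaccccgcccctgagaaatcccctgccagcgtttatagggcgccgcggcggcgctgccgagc
Egr2 (chr10:67537316-67537615, plus strand): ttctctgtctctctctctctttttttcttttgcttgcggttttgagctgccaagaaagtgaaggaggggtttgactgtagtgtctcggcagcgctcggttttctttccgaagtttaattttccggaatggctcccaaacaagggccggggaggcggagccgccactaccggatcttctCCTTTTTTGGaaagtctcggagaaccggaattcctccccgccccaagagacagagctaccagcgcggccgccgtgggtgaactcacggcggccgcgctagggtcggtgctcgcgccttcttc
Cxcl1 and Cxcl2 hold the same 11 letters, GGGAATTTCCC, upstream of their starts. The NF-kB consensus was in the windows of 9 of these 34 genes (Ccl20, Cxcl1, Cxcl2, Il6, Irf1, Lif, Nfkbia, Tnfaip2 and Tnfaip3), in 2 of the 11 genes with a higher response and a window, in 12.3% of the genes tested and in 9.55% of all genes with a window. Of all windows of this length 8.46% held it. It was also in 5 of the 7 genes with a window among the 10 largest kinase-dead rises that were shared with wild type and had no called difference. These 5 were Egr2, Fos, Fosb, Ier3 and Nr4a1, so Egr2, shown here for its CArG box, held the NF-kB consensus in its windows too. The CArG box was in 1 of the 34 genes (Zfp36), in 1 of those 7 (Egr2) and in 1.81% of all genes (1.63% of windows). These matches describe letters in a window and were not tested for binding.

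Genes whose products restrain NF-kB or act with it as coregulators were the next group. Tnfaip3 encodes A20, a ubiquitin-editing enzyme that ends signalling from the receptor. It had signals of 88.9 and 90.6 in kinase-dead cells at 1 h and 46 and 55.4 in unstimulated kinase-dead cells, against 1620.7 and 1866.8 in wild-type cells at 1 h and 42.9 and 43.8 in unstimulated wild-type cells. The unstimulated arrays of both genotypes lay close together, and the genotypes stood far apart after IL-1b. The difference was -4.35 ± 0.20 (adjusted p = 7.17e-10), with changes of 0.74 ± 0.14 in kinase-dead and 5.09 ± 0.14 in wild-type cells. A second Tnfaip3 probe set gave -2.15 (adjusted p = 0.54). Nfkbiz encodes IkB-zeta, a nuclear coregulator of NF-kB that is needed for secondary genes such as Il6. It had signals of 453.3 and 411.8 in kinase-dead cells at 1 h and 216.4 and 218.7 in unstimulated kinase-dead cells, against 4175.2 and 4284 in wild-type cells at 1 h and 275.3 and 271.9 in unstimulated wild-type cells. It rose in both genotypes, by 0.96 ± 0.09 in kinase-dead and 3.91 ± 0.09 in wild-type cells, and the difference was -2.95 ± 0.13 (adjusted p = 4.5e-10). Nfkbia, the gene of IkB-alpha, which holds NF-kB in the cytoplasm, changed by 0.35 ± 0.11 in kinase-dead and 2.04 ± 0.11 in wild-type cells, a difference of -1.69 ± 0.16 (adjusted p = 9.78e-06). All 4 other Nfkbia probe sets were called in the same direction, with differences of -1.49, -2.48, -3.06 and -3.60, and the value of the probe set used here, the brightest, is smaller in size than 3 of these. Of the 7 genes of the IkB family tested, 2 had a lower response, 0 a higher one and 5 did not pass, among them Nfkbie at -1.21 ± 0.29 (adjusted p = 0.109). It passed without unstimulated kinase-dead replicate 2 (adjusted p = 0.0112). Of 8 genes of A20 and its partners, Tnfaip3 alone passed, and of the 2 Rel-domain subunit genes tested 0 did (1 at an unadjusted p under 0.05). The counts of these 3 lists stand beside 0.345% of all genes tested with a called lower response.

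Among 14 genes of proteins that act on mRNA decay, several of which shorten the life of inflammatory transcripts, 4 had a lower response, 0 a higher one and 10 did not pass (median -0.21). The share called lower over all genes tested was 0.345%. Zfp36 encodes tristetraprolin, which binds AU-rich elements. It had signals of 279.7 and 311.1 in kinase-dead cells at 1 h and 95.6 and 133 in unstimulated kinase-dead cells, against 1990.4 and 1835.8 in wild-type cells at 1 h and 162.4 and 208.4 in unstimulated wild-type cells. It rose in both genotypes, by 1.33 ± 0.15 in kinase-dead and 3.32 ± 0.15 in wild-type cells, and the difference was -1.995 ± 0.22 (adjusted p = 8.02e-05). Zc3h12a, which encodes an RNase also known as regnase-1, changed by -0.64 ± 0.38 in kinase-dead and 3.22 ± 0.38 in wild-type cells and differed by -3.86 ± 0.54 (adjusted p = 0.00122). Its kinase-dead signals were 7.8 and 29.3 at 1 h and 30 and 29.6 without stimulation. Wild-type signals were 234.2 and 296.6 at 1 h and 40.5 and 9.5 without stimulation. All but the wild-type 1 h arrays were dim, around the median of 25.5, so its kinase-dead change was read from dim signals. A second Zc3h12a probe set gave 0.22 (adjusted p = 0.95). Btg2 and Btg1 encode antiproliferative proteins that bind the deadenylase complex. Btg2 rose in both genotypes, by 1.70 ± 0.13 in kinase-dead and 2.92 ± 0.13 in wild-type cells, with a difference of -1.22 ± 0.18 (adjusted p = 0.00195), the member of the 43 with the largest kinase-dead rise. Btg1 differed by -0.59 ± 0.12 (adjusted p = 0.0389), but its call held in 3 of the 12 fits that left out 1 array, with an adjusted p of 0.201 without kinase-dead 1 h replicate 1. Another Btg1 probe set was called too, at -0.53. Btg1 was higher in kinase-dead cells without stimulation, by 0.52 ± 0.09 (adjusted p = 0.000463). At 1 h its levels differed by -0.07 ± 0.09 between the genotypes (adjusted p = 0.697).

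**Figure D2:**
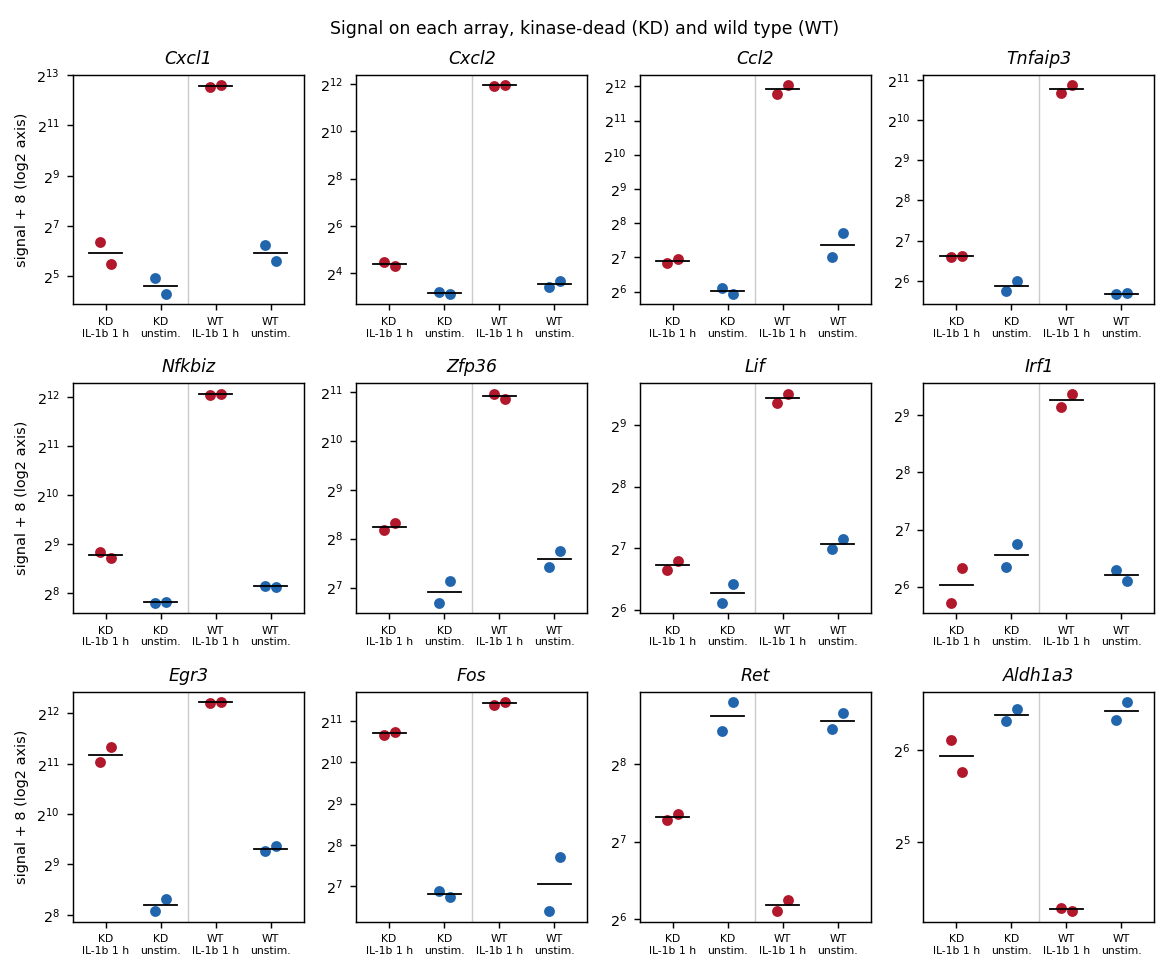
Signal plus 8 on a log2 axis for 12 genes, with a point per array and a bar at the mean log2 value of the 2 arrays of a group, kinase-dead groups left of wild-type groups and 1 h left of unstimulated. For Cxcl1 to Irf1 the wild-type 1 h arrays stand apart from all others. For Egr3 and Fos the 1 h arrays of both genotypes are high, and for Ret and Aldh1a3 the wild-type 1 h arrays are lowest.

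Of 23 cytokine and growth factor genes, 2 had a lower response, 0 a higher one and 21 did not pass (median 0.09). Over all genes tested, 0.345% were called lower. Lif, an IL-6 family cytokine gene, had signals of 92.2 and 102.8 in kinase-dead cells at 1 h and 61.4 and 77.2 in unstimulated kinase-dead cells, against 644.1 and 721.4 in wild-type cells at 1 h and 119.1 and 133.4 in unstimulated wild-type cells. The kinase-dead 1 h arrays lay below the unstimulated wild-type ones. The difference was -1.91 ± 0.20 (adjusted p = 6.02e-05), from changes of 0.45 ± 0.14 in kinase-dead and 2.36 ± 0.14 in wild-type cells. Lifr, the gene of its receptor, differed by -0.89 ± 0.18 (adjusted p = 0.0277), and its call held in 6 of the 12 fits that left out 1 array, with an adjusted p of 0.169 without wild-type 1 h replicate 2. Il6 had signals of 18.5 and 20.5 in kinase-dead cells at 1 h and 3.5 and 13.6 in unstimulated kinase-dead cells, against 132.2 and 132.8 in wild-type cells at 1 h and 13.5 and 8.4 in unstimulated wild-type cells. Its kinase-dead arrays were all below 25.5, its difference was -2.10 ± 0.39 (adjusted p = 0.0154), and its call held in 4 of the 12 fits that left out 1 array, with an adjusted p of 0.0976 without wild-type 1 h replicate 2. The cytokine genes Tnf, with -2.20 ± 0.65 (adjusted p = 0.242), and Csf2, with -1.30 ± 0.65 (adjusted p = 0.614), did not pass.

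Irf1, a transcription factor gene that both interferon and NF-kB induce, had signals of 45 and 72.6 in kinase-dead cells at 1 h and 73.6 and 99.3 in unstimulated kinase-dead cells, against 555.8 and 654.1 in wild-type cells at 1 h and 70.2 and 61.1 in unstimulated wild-type cells. The wild-type 1 h arrays alone were high, and the difference was -3.57 ± 0.31 (adjusted p = 4.81e-06). Map3k8, whose kinase product links IKK to the ERK MAP kinases, differed by -2.83 ± 0.44 (adjusted p = 0.00353), with changes of 0.09 ± 0.31 in kinase-dead and 2.92 ± 0.31 in wild-type cells. Its signals were 26.1 and 17.4 in kinase-dead cells at 1 h and 17.7 and 21.8 in unstimulated kinase-dead cells, against 75.7 and 126.7 in wild-type cells at 1 h and 9.2 and 3.4 in unstimulated wild-type cells. All but the wild-type 1 h arrays stood near or below the median signal of all probe sets, so its kinase-dead change was read from dim signals. It was the 1 gene with a call among 22 of the TAK1, IKK and MAP kinase cascades, beside 0.49% of all genes tested. Gem, a small GTPase gene, differed by -2.48 ± 0.32 (adjusted p = 0.000588), Pim1, a survival kinase gene, by -1.33 ± 0.19 (adjusted p = 0.00167), and Phlda1 by -1.39 ± 0.22 (adjusted p = 0.00421). Gadd45b, which encodes a stress protein acting on MAP kinase pathways, had signals of 1006.3 and 1017.7 in kinase-dead cells at 1 h and 1055.1 and 996.8 in unstimulated kinase-dead cells, against 2484.6 and 2599.6 in wild-type cells at 1 h and 1202.1 and 1067 in unstimulated wild-type cells. It rose in wild-type cells, and its kinase-dead change was -0.02 ± 0.10 (adjusted p = 0.96). The difference was -1.18 ± 0.14 (adjusted p = 0.000275), and both other probe sets were called too. Rgs16, a gene of a GTPase activator for G proteins, differed by -1.64 ± 0.21 (adjusted p = 0.000414), but its 2 other probe sets gave -1.37 (adjusted p = 0.38) and -0.37 (adjusted p = 0.863), and the call was lost with the mean of all probe sets. Atf3 and Csrnp1, transcription factor genes, differed by -1.34 ± 0.28 and -1.38 ± 0.28, and their calls held in 3 and 4 of the 12 fits that left out 1 array, with adjusted p-values of 0.263 and 0.225 without kinase-dead 1 h replicate 1.

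Hpgd, which encodes the enzyme that breaks prostaglandins down, differed by -1.57 ± 0.31 (adjusted p = 0.0274), and its call held in 4 of the 12 fits that left out 1 array, with an adjusted p of 0.218 without wild-type 1 h replicate 2. A second Hpgd probe set gave -1.36 (adjusted p = 0.446). Ptger4, the gene of a prostaglandin E2 receptor, rose in both genotypes, by 0.68 ± 0.11 in kinase-dead and 1.50 ± 0.11 in wild-type cells, and differed by -0.81 ± 0.16 (adjusted p = 0.0284). Its call held in 5 of those 12 fits (adjusted p of 0.191 without wild-type 1 h replicate 2), and a second probe set gave 0.75 (adjusted p = 0.812). Mt1 and Mt2 encode metallothioneins, which bind zinc and copper. Mt2 changed by -0.05 ± 0.12 in kinase-dead and 0.92 ± 0.12 in wild-type cells and differed by -0.97 ± 0.17 (adjusted p = 0.00769). Mt1 differed by -1.08 ± 0.17 (adjusted p = 0.00431) but was higher in kinase-dead cells without stimulation, by 1.14 ± 0.12 (adjusted p = 3.85e-06), and its second probe set gave 0.05 (adjusted p = 0.992). Mt2 held its call in 10 of the 12 fits (adjusted p of 0.0636 without kinase-dead 1 h replicate 2). Adamts1, a secreted protease gene, differed by -1.24 ± 0.21 (adjusted p = 0.00711) with a call in 10 of the 12 fits (adjusted p of 0.0588 without wild-type 1 h replicate 1), Stx11, a gene of membrane fusion, by -1.55 ± 0.21 (adjusted p = 0.00114), and Rnd1 by -1.49 ± 0.25 (adjusted p = 0.00658). The adjusted p of Rnd1 was 0.0522 without wild-type 1 h replicate 2. For Stx11 a second probe set gave -0.91 (adjusted p = 0.532). Gbp3, an interferon-inducible GTPase gene, differed by -1.68 ± 0.34 (adjusted p = 0.0318), and its call held in 2 of the 12 fits that left out 1 array, with an adjusted p of 0.21 without wild-type 1 h replicate 2.

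The other genes with a lower response, named here to account for every call, were Ccnl1 (-1.32), which encodes a cyclin of RNA processing, Tatdn3 (-2.20), Pnrc1 (-1.22), a nuclear receptor coactivator gene, Tcim (-1.20), Tyw5 (-1.01), Zfand5 (-0.96) and Ell2 (-0.64), a transcription elongation factor gene. Ccnl1, Tatdn3, Pnrc1 and Tcim kept their call in each of the 12 fits that left out 1 array. Second probe sets of Tatdn3 and Tcim gave only -0.21 (adjusted p = 0.961) and -0.51 (adjusted p = 0.675), and both genes lost their call with the mean of all probe sets. The 4 other Zfand5 probe sets ran from -0.91 to -0.22 with no call. For Ell2 the adjusted p rose to 0.256 without wild-type 1 h replicate 2, for Tyw5 to 0.15 without kinase-dead 1 h replicate 1 and for Zfand5 to 0.0522 without wild-type 1 h replicate 2. Of the 43 genes, 14 rose and 3 fell in kinase-dead cells, while 40 rose and 0 fell in wild-type cells. Choosing these 43 by the difference between the arms favours high wild-type and low kinase-dead changes among them. The change in kinase-dead cells ran from -1.14 to 1.70 (median 0.19) and that in wild-type cells from 0.15 to 8.40 (median 2.04). Genes that kept part of their rise in kinase-dead cells, such as Zfp36, Btg2 and Nfkbiz, stood beside genes with kinase-dead changes near 0, such as Gadd45b, Rnd1 (0.04 ± 0.18) and Pnrc1 (0.03 ± 0.11).

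**Figure D3:**
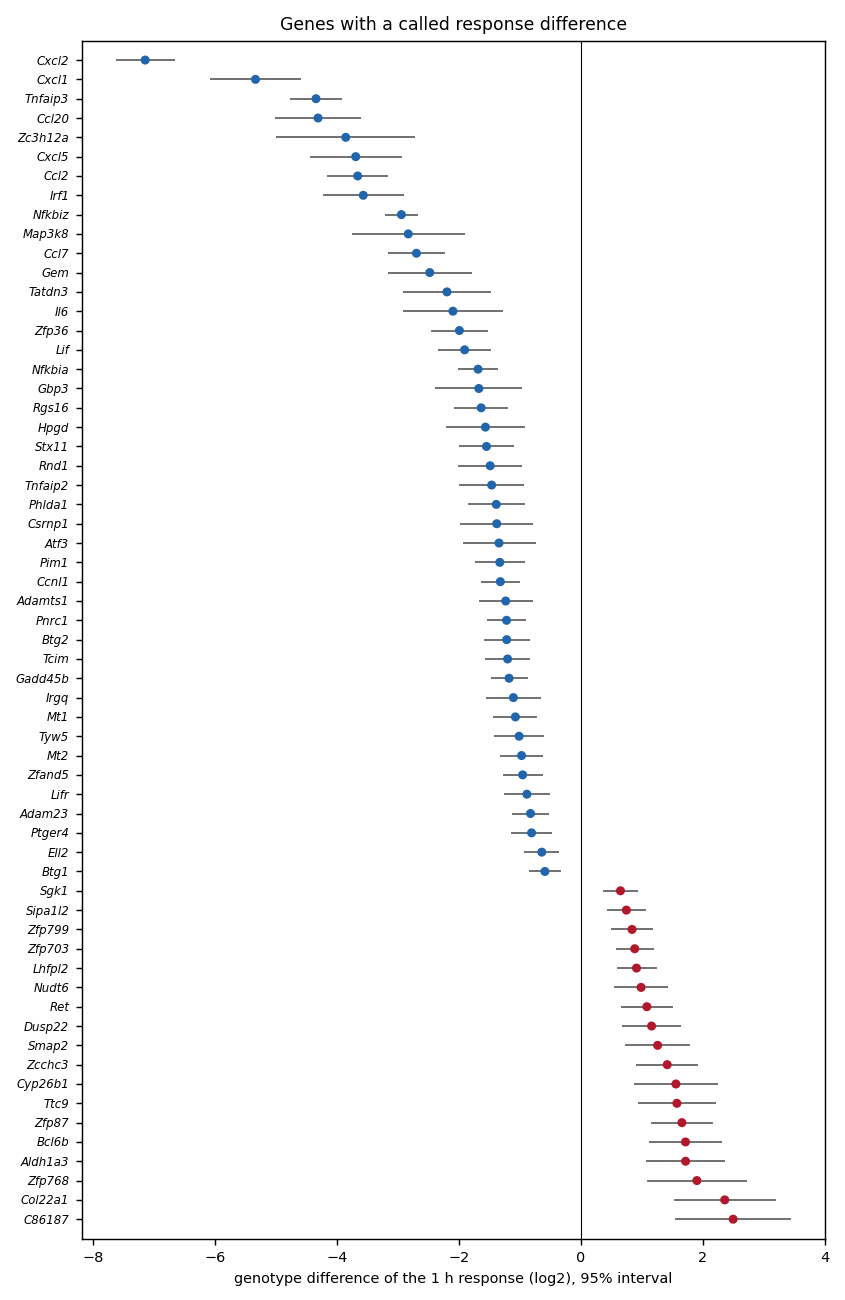
Genotype difference of the 1 h response (log2) for the 61 called genes, with 95% intervals from the limma fit, lowest at the top of the page. The intervals of the 43 genes with a lower kinase-dead response (blue) lie left of 0 and those of the 18 with a higher one (red) right of it, as the call requires. The interval of Zc3h12a is the widest and that of Btg1 the narrowest of the 61.

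The Egr, Nr4a and AP-1 families hold immediate early genes, which many stimuli induce without new protein synthesis. Of 9 genes for Egr and Nr4a factors, 5 rose in kinase-dead cells and 6 in wild-type cells, and 0 had a called difference in limma (2 at an unadjusted p under 0.05, median -0.14). Over all genes tested, 1.55% rose in kinase-dead and 2.91% in wild-type cells. The share with a called difference was 0.49%, and 1046 of the 12456 were at an unadjusted p under 0.05. Egr3, a growth-factor-responsive transcription factor gene, had signals of 2091.5 and 2564.1 in kinase-dead cells at 1 h and 261.3 and 310.9 in unstimulated kinase-dead cells, against 4743.4 and 4783.3 in wild-type cells at 1 h and 604.5 and 650.1 in unstimulated wild-type cells. The levels of the genotypes did not overlap in either condition, while the changes did, with 2.99 ± 0.13 in kinase-dead and 2.91 ± 0.13 in wild-type cells and a difference of 0.08 (95% interval -0.32 to 0.48; adjusted p = 0.953). For Egr1 the difference was 0.08 (95% interval -0.19 to 0.35; adjusted p = 0.91), for Egr2 0.27 (95% interval -0.21 to 0.75; adjusted p = 0.811) and for Jun, a subunit of AP-1, 0.04 (95% interval -0.23 to 0.31; adjusted p = 0.96). Fos, the other subunit, had signals of 1611.1 and 1696.8 in kinase-dead cells at 1 h and 109.4 and 98.3 in unstimulated kinase-dead cells, against 2680 and 2808 in wild-type cells at 1 h and 76.3 and 202.4 in unstimulated wild-type cells. Its difference was -0.47 (95% interval -1.32 to 0.38; adjusted p = 0.811), and its 2 unstimulated wild-type arrays were further apart than the arrays of the other 3 groups. Nr4a1, an orphan nuclear receptor gene, gave -0.63 (95% interval -1.22 to -0.04; adjusted p = 0.556). Of 10 AP-1 family genes, 5 rose in kinase-dead cells and 7 in wild-type cells. Of the same genes Atf3 had a called lower response and 9 did not pass, with 3 of the 10 at an unadjusted p under 0.05 and a median difference of -0.57. Fosb gave -1.42 (95% interval -2.85 to 0.01; adjusted p = 0.594) and Junb -0.66 (95% interval -1.43 to 0.12; adjusted p = 0.669).

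MAP kinase phosphatases and receptor-kinase feedback genes limit growth factor signals. Of 18 tested, 8 rose in kinase-dead cells and 6 in wild-type cells, and 0 had a called difference in limma (4 at an unadjusted p under 0.05, median 0.05). Over all 12456 genes 1.55% rose in kinase-dead and 2.91% in wild-type cells. The difference was called for 0.49% of them, and 1046 were at an unadjusted p under 0.05. Errfi1, whose product binds and inhibits the EGF receptor, had signals of 3385.6 and 3612.4 in kinase-dead cells at 1 h and 1152.3 and 1391.8 in unstimulated kinase-dead cells, against 7316.8 and 7470 in wild-type cells at 1 h and 2976.3 and 3016.5 in unstimulated wild-type cells. It stood lower in kinase-dead cells in both conditions, with changes of 1.46 ± 0.10 in kinase-dead and 1.30 ± 0.10 in wild-type cells and a difference of 0.16 (95% interval -0.14 to 0.46; adjusted p = 0.827). Dusp5, a phosphatase gene for ERK, differed by -0.06 (95% interval -0.47 to 0.35; adjusted p = 0.964), Spry2, a feedback inhibitor gene of the same pathway, by -0.16 (95% interval -0.52 to 0.20; adjusted p = 0.863) and Dusp1, a MAP kinase phosphatase gene, by -0.50 (95% interval -0.91 to -0.10; adjusted p = 0.444). Of 27 other immediate early genes, 14 rose in kinase-dead cells and 13 in wild-type cells, and 4 had a lower response (Gem, Phlda1, Csrnp1 and Pim1), 1 a higher one (Sgk1) while 22 did not pass. Ier3, a survival gene, gave -0.57 (95% interval -0.88 to -0.26; adjusted p = 0.139) and passed without unstimulated kinase-dead replicate 1 (adjusted p = 0.0301). Ier2 gave -1.61 (95% interval -2.46 to -0.76; adjusted p = 0.128) and passed without unstimulated wild-type replicate 2 (adjusted p = 0.0106). The median over the 27 was -0.16, and that over all genes 0.04.

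The 18 genes with a higher response in kinase-dead cells were mostly transcripts that fell after IL-1b in wild-type cells. Of the 18, 4 rose and 2 fell in kinase-dead cells, while 1 rose and 14 fell in wild-type cells. Choosing these 18 by the difference between the arms favours low wild-type and high kinase-dead changes among them. Their kinase-dead changes ran from -1.29 to 1.38 (median 0.28) and their wild-type changes from -2.40 to 0.73 (median -1.23). Ret, which encodes a receptor tyrosine kinase, had signals of 147.5 and 156.3 in kinase-dead cells at 1 h and 336 and 436.4 in unstimulated kinase-dead cells, against 60.9 and 68.4 in wild-type cells at 1 h and 340.8 and 396.4 in unstimulated wild-type cells. It fell in both genotypes, by 1.29 in kinase-dead and by 2.37 in wild-type cells on the log2 scale, and differed by 1.08 ± 0.20 (adjusted p = 0.0154). Its call held in 7 of the 12 fits that left out 1 array (adjusted p up to 0.0992 without unstimulated kinase-dead replicate 1) and was lost with arrays scaled to 1 median. Bcl6b, a transcriptional repressor gene, had signals of 90.1 and 83.4 in kinase-dead cells at 1 h and 63.7 and 72.4 in unstimulated kinase-dead cells, against 17.5 and 28.5 in wild-type cells at 1 h and 76.7 and 68.1 in unstimulated wild-type cells. The wild-type 1 h arrays alone were low, and the difference was 1.72 ± 0.28 (adjusted p = 0.00652). Zfp87, a zinc-finger gene, had a difference of 1.66 ± 0.24 (adjusted p = 0.00167), with changes of -0.74 ± 0.17 in kinase-dead and -2.40 ± 0.17 in wild-type cells. Bcl6b and Zfp87 were the 2 of the 18 that kept their call in each of those 12 fits.

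Aldh1a3, a gene of retinoic acid synthesis, had signals of 61.1 and 46.5 in kinase-dead cells at 1 h and 71.7 and 79.4 in unstimulated kinase-dead cells, against 11.5 and 11 in wild-type cells at 1 h and 72.3 and 84.2 in unstimulated wild-type cells, with a difference of 1.72 ± 0.31 (adjusted p = 0.012). Its call held in 9 of the 12 fits (adjusted p of 0.0924 without kinase-dead 1 h replicate 1), and its other 2 probe sets gave 0.55 and 1.14 (adjusted p = 0.86 and 0.523). Cyp26b1, whose product degrades retinoic acid, differed by 1.56 ± 0.33 (adjusted p = 0.0407), but its call held in 2 of the 12 fits that left out 1 array, with an adjusted p of 0.201 without kinase-dead 1 h replicate 1. Col22a1, a collagen gene, had signals of 43.2 and 34.7 in kinase-dead cells at 1 h and 26.1 and 30.1 in unstimulated kinase-dead cells, against 7 and 8.9 in wild-type cells at 1 h and 53.4 and 56.6 in unstimulated wild-type cells, a difference of 2.36 ± 0.40 (adjusted p = 0.00705), and an adjusted p of 0.0607 without kinase-dead 1 h replicate 1. C86187, a transcript with no further name in the annotation, differed by 2.50 ± 0.45 (adjusted p = 0.0125), Zfp768 by 1.90 ± 0.39 (adjusted p = 0.035), Zfp799 by 0.84 ± 0.17 (adjusted p = 0.0274) and Zfp703, all zinc-finger genes, by 0.88 ± 0.15 (adjusted p = 0.00658). The others were Zcchc3 (1.42), Ttc9 (1.57), Nudt6 (0.99) and Sipa1l2 (0.74). Second probe sets of Zfp703 and Nudt6 had the opposite sign, -0.37 (adjusted p = 0.924) and -0.14 (adjusted p = 0.963), and those of Zcchc3 and Ttc9 gave 0.77 (adjusted p = 0.56) and 0.53 (adjusted p = 0.752), also without a call. With the mean of all probe sets Zfp703 lost its call (adjusted p = 0.872). Of these 8 genes from C86187 on, Zfp703 held its call in the most fits, 10 of 12, and Nudt6 in the fewest, 1. Their highest adjusted p-values lay between 0.0647 without wild-type 1 h replicate 2 for Zfp703 and 0.226 without kinase-dead 1 h replicate 1 for Nudt6.

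Some differences came with a called change in kinase-dead cells and none in wild-type cells. Tnfaip2, an NF-kB-responsive gene also known as M-Sec, had signals of 262.6 and 286.3 in kinase-dead cells at 1 h and 497.9 and 753.3 in unstimulated kinase-dead cells, against 1372.3 and 1647.4 in wild-type cells at 1 h and 1465 and 974.5 in unstimulated wild-type cells. It fell in kinase-dead cells, by 1.14 on the log2 scale, and changed by 0.33 ± 0.18 in wild-type cells (adjusted p = 0.302). The difference was -1.47 ± 0.25 (adjusted p = 0.00769), with an adjusted p of 0.0888 without wild-type 1 h replicate 2, while its other 2 probe sets gave -0.43 and 0.06 (adjusted p = 0.777 and 0.991). Adam23, a cell adhesion gene, had changes of -0.67 ± 0.10 in kinase-dead and 0.15 ± 0.10 in wild-type cells and differed by -0.83 ± 0.14 (adjusted p = 0.0084), and Irgq by -1.11 ± 0.21 (adjusted p = 0.0205), with calls in 9 and 6 of the 12 fits. The highest adjusted p was 0.0886 without kinase-dead 1 h replicate 2 for Adam23 and 0.127 without wild-type 1 h replicate 2 for Irgq. The other 2 Adam23 probe sets gave -0.22 and -0.45 (adjusted p = 0.937 and 0.822). The Adam23 call was lost with the mean of all probe sets. In the other direction, Lhfpl2 had signals of 1280.2 and 1202.2 in kinase-dead cells at 1 h and 763.4 and 692.4 in unstimulated kinase-dead cells, against 623.5 and 672.6 in wild-type cells at 1 h and 660.7 and 780.1 in unstimulated wild-type cells. The kinase-dead 1 h arrays alone were high, with a difference of 0.91 ± 0.15 (adjusted p = 0.00746), and 1 of 2 other probe sets was called as well, but the adjusted p was 0.0683 without kinase-dead 1 h replicate 1. Dusp22, a phosphatase gene, differed by 1.16 ± 0.23 (adjusted p = 0.0287) and Smap2, a gene of membrane traffic, by 1.26 ± 0.25 (adjusted p = 0.0285), with calls in 6 and 5 of the 12 fits. Without wild-type 1 h replicate 2 their adjusted p-values were 0.206 and 0.185. Sgk1, a serum- and glucocorticoid-induced kinase gene, had signals of 2763.4 and 2796 in kinase-dead cells at 1 h and 958 and 1179.5 in unstimulated kinase-dead cells, against 4822.7 and 4755.3 in wild-type cells at 1 h and 2660.4 and 3116.6 in unstimulated wild-type cells. It rose in both genotypes, more in kinase-dead cells from a lower start, and differed by 0.65 ± 0.14 (adjusted p = 0.0436), though its call held in 2 of the 12 fits that left out 1 array, with an adjusted p of 0.225 without unstimulated kinase-dead replicate 1.

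Genes of the receptor pathway itself showed no called difference. Of 13 tested, 0 passed in limma in either direction (1 at an unadjusted p under 0.05), while 1 rose in kinase-dead cells and 1 rose and 1 fell in wild-type cells, with a median difference of 0.01. Over all 12456 genes 0.49% were called and 1046 were at an unadjusted p under 0.05, so a list this short need not hold a call. Rises were called for 1.55% of all genes in kinase-dead and 2.91% in wild-type cells, and falls for 1.72% and 4.55%. Il1r1, the gene of the signalling receptor, gave 0.17 (95% interval -0.27 to 0.61; adjusted p = 0.884), Il1rap, the gene of its co-receptor, 0.49 (95% interval -0.05 to 1.03; adjusted p = 0.633), Myd88 -0.57 (95% interval -1.11 to -0.02; adjusted p = 0.569), Irak1 -0.05 (95% interval -0.58 to 0.47; adjusted p = 0.979), Irak2 0.41 (95% interval -0.18 to 1.01; adjusted p = 0.748) and Traf6 0.01 (95% interval -0.56 to 0.58; adjusted p = 0.996). Il1r1 had signals of 249.5 and 244.6 in kinase-dead cells at 1 h and 210.9 and 203.5 in unstimulated kinase-dead cells, against 504 and 489.9 in wild-type cells at 1 h and 390.7 and 569.8 in unstimulated wild-type cells. It was lower in kinase-dead cells without stimulation, by 1.16 on the log2 scale (adjusted p = 2.89e-05), and so was Il1rap, by 0.88 (adjusted p = 0.00284). Their part in the response differences was not tested.

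Counts for the other gene groups follow, where the share with a called difference over all genes tested was 0.49%. Of 24 adhesion and matrix genes, Adamts1 alone passed (median -0.30). Icam1, a leukocyte adhesion molecule gene, gave -1.25 (95% interval -1.91 to -0.60; adjusted p = 0.124) and passed without unstimulated wild-type replicate 1 (adjusted p = 0.0442). Vcam1, another, gave -1.02 (95% interval -1.67 to -0.39; adjusted p = 0.242) and passed without unstimulated wild-type replicate 2 (adjusted p = 0.00227). Of 15 survival genes, Gadd45b alone passed, and Birc3, the gene of an apoptosis inhibitor, gave -0.95 (95% interval -1.51 to -0.38; adjusted p = 0.208). Acute phase and inflammatory effectors numbered 3 with a lower response (Tnfaip2, Mt1 and Mt2) of 16, and interferon regulatory and stimulated genes 2 (Irf1 and Gbp3) of 13. None of 10 Kruppel-like factor, 15 ATF4 and unfolded protein response, 9 heat shock and 14 cell cycle genes passed in limma (1, 2, 2 and 2 at an unadjusted p under 0.05), with medians between -0.17 and 0.14.

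**Figure D4:**
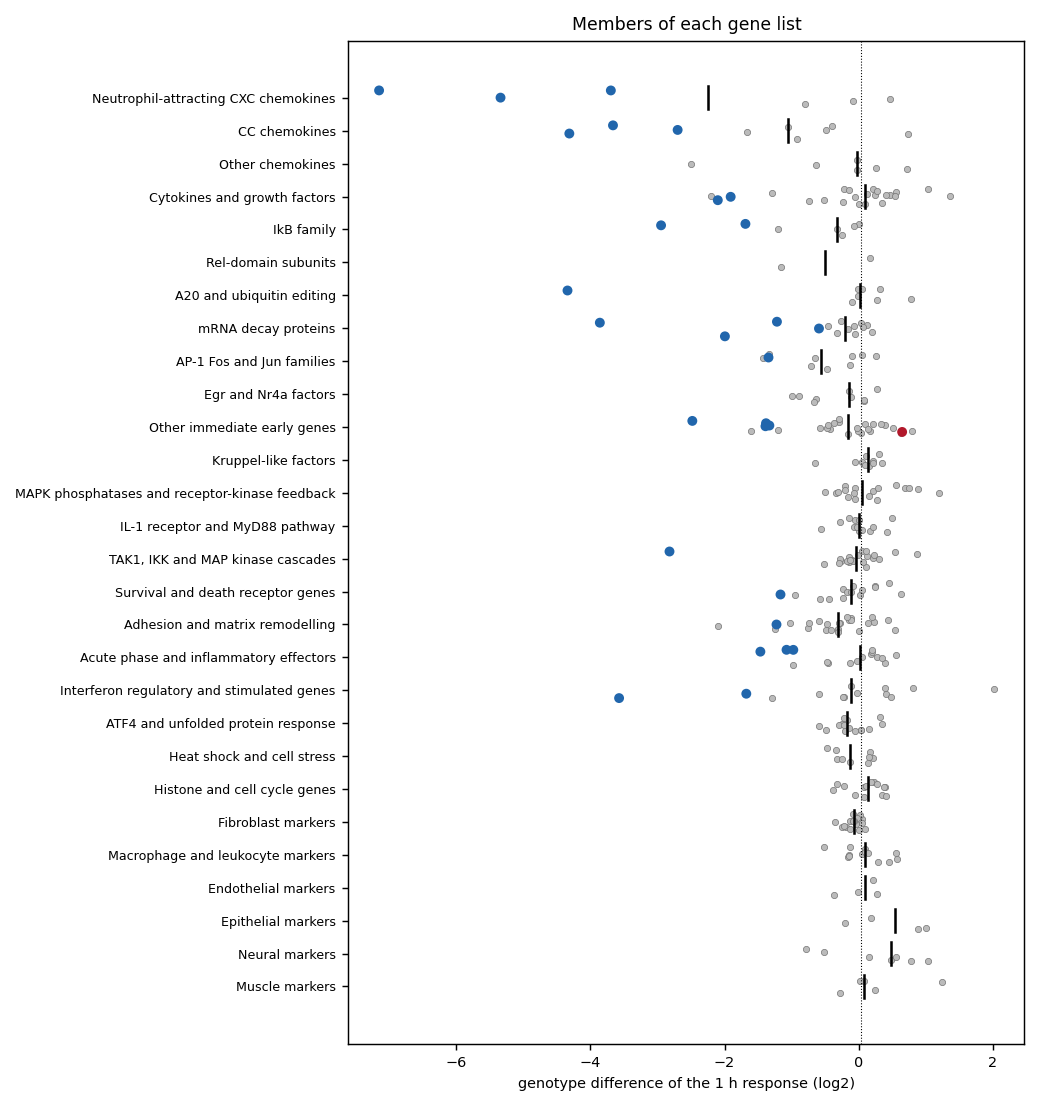
Genotype difference of the 1 h response (log2) for each tested member of 28 gene lists, with called members coloured, a bar at each list's median and a dotted line at the median of all genes. Chemokine members reach furthest left, to -7.15, and the lists of Egr factors, phosphatases and receptor pathway genes show grey points near 0.

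The genotypes also differed without IL-1b, where 1786 genes were called (14.3%), 7.38% of those tested as higher and 6.96% as lower in kinase-dead cells. After 1 h of IL-1b the number was 1657 (13.3%), with 6.94% higher and 6.36% lower. Of the 43, 13 were called lower and 6 higher at the start in kinase-dead cells, the 13 including Cxcl5, Ccl7 (-1.72 ± 0.16), Ccl20 (-1.42 ± 0.23), Ccl2 (-1.35 ± 0.17), Rgs16 (-1.32 ± 0.15) and Cxcl1 (-1.31 ± 0.25). Others started close together, such as Tyw5 (-0.04 ± 0.14), Pnrc1 (0.02 ± 0.11), Nfkbia (0.10 ± 0.11) and Tnfaip3 (0.19 ± 0.14). Of the 18, 4 were called lower and 0 higher at the start in kinase-dead cells. These were Sgk1 (-1.43 ± 0.10), Ttc9 (-1.17 ± 0.22), Zfp703 (-0.81 ± 0.10) and Smap2 (-0.78 ± 0.18). At 1 h Sgk1 was still lower (-0.78 ± 0.10). Ttc9 (0.40 ± 0.22), Zfp703 (0.07 ± 0.10) and Smap2 (0.475 ± 0.18) had no called difference between the genotypes at 1 h. Fibroblast genes were high in both genotypes, with Col1a1 at mean signals of 5461 and 5455 in kinase-dead cells with and without IL-1b, against 5816 and 5134 in wild-type cells. Of 16 fibroblast markers tested, 4 were called lower in unstimulated kinase-dead cells and 0 higher, and 0 had a called response difference. Of 16 macrophage and leukocyte markers, 13 reached the filter, 6 were called higher in unstimulated kinase-dead cells and 0 lower, and 0 had a called response difference. Their summed signal was 1451 to 1474 in kinase-dead cells at 1 h and 1321 to 1379 in unstimulated ones, against 514 to 537 and 466 to 532 in wild-type cells. Most of it came from Lyz1 and Lyz2, near-identical genes that the probes may not tell apart, and the lowest reading of any of the 13 on the 8 arrays was 1.2. The summed markers of neural cells were 711 to 774 and 656 to 709 in kinase-dead cells, against 416 to 500 and 461 to 473 in wild-type cells, and those of endothelial, epithelial and muscle cells lay between 63.1 and 174 on these 8 arrays. The ratio of 3' to 5' actin signal, a sign of RNA integrity, averaged 2.42 ± 0.09 and 2.84 ± 0.02 in kinase-dead cells at 1 h and without stimulation, against 2.44 ± 0.01 and 2.41 ± 0.38 in wild-type cells (SD, n = 2). The part of these cells, or of RNA integrity, in the response differences was not tested, and fewer cells of a type and less RNA per cell cannot be told apart.

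Whether the differences seen at 1 h changed by 4 h was asked with the change between 1 h and 4 h in kinase-dead cells minus that in wild-type cells, which uses no unstimulated array. It passed for 443 genes (3.56%), upwards for 1.86% and downwards for 1.69% of those tested. Of the 43 genes it passed upwards for 20 and downwards for 5, and of the 18 upwards for 0 and downwards for 8. It shares the 1 h arrays with the 1 h difference, and the 4 h difference shares its unstimulated controls, so the values stand side by side without a count of agreement. Ccl2 differed by -3.66 at 1 h and -0.81 at 4 h, a shift of 2.85 ± 0.24 (adjusted p = 3.15e-06), Cxcl1 by -5.34 at 1 h and -1.64 at 4 h, a shift of 3.70 ± 0.35 (adjusted p = 9.18e-06), and Irf1 by -3.57 at 1 h and -0.48 at 4 h, a shift of 3.10 ± 0.31 (adjusted p = 1.54e-05). Nfkbiz (-2.95 at 1 h and -0.68 at 4 h) and Ccl7 (-2.70 at 1 h and -0.21 at 4 h) also had smaller differences at 4 h, with shifts of 2.27 ± 0.13 (adjusted p = 5.86e-08) and 2.49 ± 0.22 (adjusted p = 6.87e-06). Cxcl2, the lowest of the 43 at 1 h and the second lowest after Il6 at 4 h, differed by -7.15 at 1 h and -4.63 at 4 h, a shift of 2.52 ± 0.23 (adjusted p = 6.96e-06). Il6 moved the other way, with -2.10 at 1 h and -5.49 at 4 h and a shift of -3.39 ± 0.39 (adjusted p = 4.97e-05), as did Gbp3 (-1.68 at 1 h and -4.02 at 4 h), Mt2 (-0.97 at 1 h and -2.63 at 4 h) and Lif (-1.91 at 1 h and -2.92 at 4 h), with shifts of -2.35 ± 0.34 (adjusted p = 0.000563), -1.66 ± 0.17 (adjusted p = 1.5e-05) and -1.02 ± 0.20 (adjusted p = 0.00738). For Zc3h12a and Cxcl5 the shift did not pass (0.85 ± 0.54 and 0.86 ± 0.36). Hpgd changed sign, with -1.57 at 1 h and 1.53 at 4 h and a shift of 3.10 ± 0.31 (adjusted p = 1.42e-05). All 18 genes with a higher kinase-dead response at 1 h had negative shifts, from -2.49 to -0.09, and 5 of them had 4 h differences below 0. Of these 5, Sipa1l2 (0.74 at 1 h and -1.23 at 4 h; adjusted p at 4 h = 0.000171) and Lhfpl2 (0.91 at 1 h and -0.60 at 4 h; adjusted p at 4 h = 0.0452) were called lower at 4 h. Bcl6b (1.72 at 1 h and -0.77 at 4 h) and Aldh1a3 (1.72 at 1 h and -0.64 at 4 h) did not pass at 4 h (adjusted p = 0.175 and 0.308), nor did Ret (adjusted p = 0.998). Since the 61 genes were chosen for their 1 h values, shifts towards 0 are favoured among them.

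**Figure D5:**
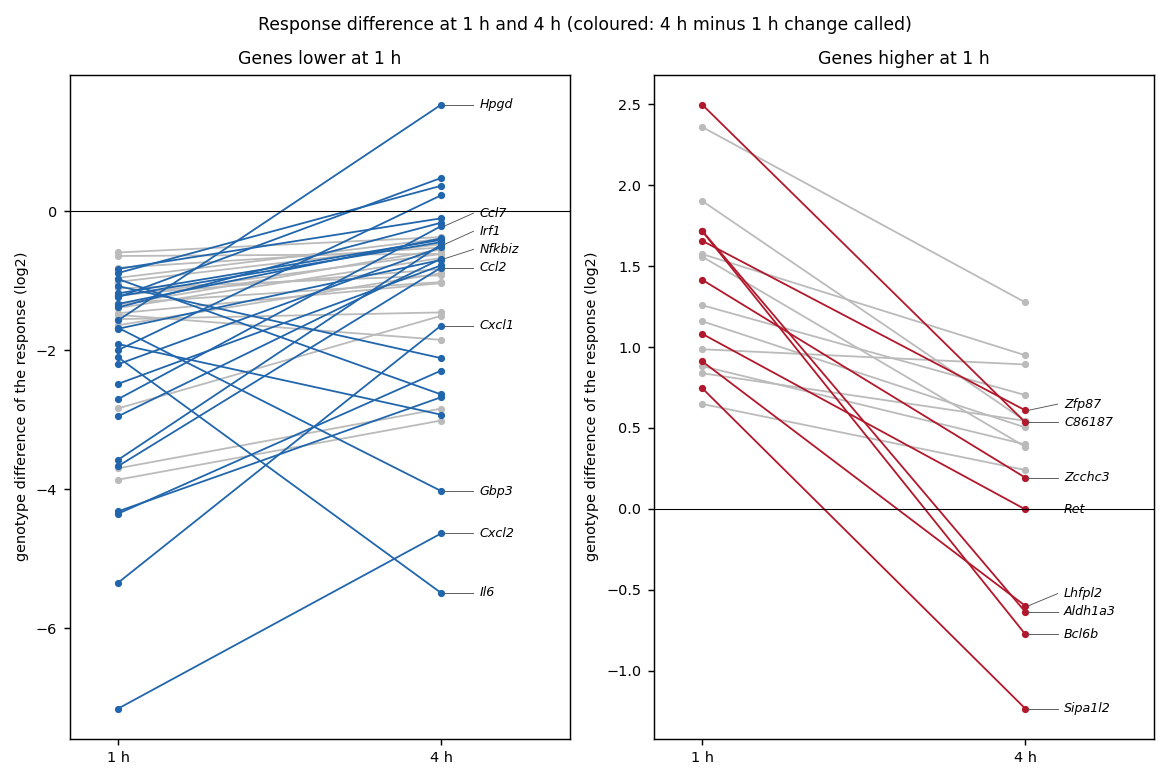
Genotype difference of the response (log2) at 1 h and at 4 h for the 43 genes with a lower kinase-dead response at 1 h (left) and the 18 with a higher one (right), with a line per gene. Lines are coloured where the shift between 1 h and 4 h was called, and the genes with the largest shifts are named. Cxcl1 and Ccl2 move towards 0 while Il6 and Gbp3 move away from it.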

How the data were processed

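The authors deposited MAS5 signal intensities per the submitters' processing notes, 1 linear value per probe set and array. RNA was purified on RNeasy columns and amplified with NuGEN Ovation, per the labels. No source used here gives the MAS5 version or settings. Each array had a mean of 150 once 2% of values at either end were trimmed. Array medians were 23 to 28.3.

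Probe sets with 1 gene symbol in the platform annotation (34945 of 45101; 932 had several) were kept where 2 or more arrays reached a signal of 25.5, the overall median. Symbols were updated through the gene identifier with the GRCm38.p6 table (12398 of 12456 genes matched). Among several probe sets of a gene, the one brightest on average in log2(signal + 8) was taken, and fold changes on this scale understate changes of low signals. Of the 61 called genes, 24 had another tested probe set; another was called in the same direction for 7 and in the opposite one for 0. The deposited scaling was kept.

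Group means of all 6 groups were estimated together from 12 arrays, leaving 6 residual degrees of freedom, by limma 3.58.1 (R 4.3.3; lmFit, then eBayes with a variance trend). Two-sided p-values were adjusted (Benjamini-Hochberg) over all genes within each comparison and called under 0.05. Intervals are from the moderated fit and not adjusted. Scripts were tested on simulated data. Figures used matplotlib 3.10.9.

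Of 402 entries in 28 gene lists, 339 were tested, and lists are described by counts and medians alone. Their counts stand beside the 0.49% of all genes tested that had a called difference. Members and lists were chosen with earlier results of these data known. Named were the 15 lowest and 10 highest called differences whose array-pair changes separate, up to 6 called and 3 other members of each list, the 10 largest shared rises and 5 shared falls, the 5 called genes with the largest difference without stimulation, and 26 fixed genes. Fewer are given than this allows, and the called genes outside it are named so that each call is accounted for. Alternatives covered the pseudocount, filter, scaling, variance model, arrays in the fit, probe set choice, a replicate block and leaving out each array.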

Additional observations from a re-analysis of the deposited data

Results flagged for a closer look

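The response to IL-1b differed between the genotypes, by the test of the difference itself, for 61 genes, and the results above describe each of them. Of these, 6 had a called change in kinase-dead cells and none in wild-type cells. They were Tnfaip2 (log2 difference -1.47), Irgq (-1.11), Adam23 (-0.83), Lhfpl2 (0.91), Dusp22 (1.16) and Smap2 (1.26). A called change in one genotype alone does not show a difference, which for these 6 rests on the adjusted p of the difference given above. None of the 6 kept its call in each of the 12 fits that left out 1 array. Groups of 2 arrays allow no check for an array far from the others of its group.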

How the results depend on the processing

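The number of arrays, 2 a group, limits the precision. Of the 43 genes with a lower kinase-dead response, 26 kept their call in each of the 12 fits that left out 1 array and 14 did so under the 11 other alternatives as well. Of the 18 with a higher one, 2 did in the 12 fits and 0 under all alternatives. No called difference changed sign. The 61 calls became 19 without a trend in the variance model, 53 and 67 with pseudocounts of 1 and 32, 43 with no filter, 42 with the unstimulated and 1 h arrays alone and 35 to 103 when 1 array was left out. For wild-type cells at 1 h the 930 calls became 465 without the trend and 410 to 1008 with an array left out. For kinase-dead cells the 407 became 57 without the trend, 271 with no filter, 251 with arrays scaled to 1 median, 254 with the unstimulated and 1 h arrays alone, 237 with the mean of all probe sets and 94 to 646 with an array left out. Between the genotypes the 1786 calls without stimulation became 1061 to 1994 and the 1657 at 1 h 1000 to 1966 with an array left out. The 443 calls of the shift between 1 h and 4 h became 172 without the trend and 274 to 630 with an array left out. The labels give the groups the same replicate numbers, but same-numbered arrays did not deviate together (correlations over genes of -0.051 to 0.099 between groups), so the numbers are not taken as pairs. With a replicate block the 61 calls were 64, of which 59 were among the 61. The cause of these shifts was not tested.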
